A study of Mus musculus with 2 samples.

Results

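The 10 genes described here encode the interleukin-1 (IL-1) and IL-18 system and the core of the NLRP3 inflammasome: Il1a, Il1b, Il1rn, Il1r2, Il1rap, Il18, Il18bp, Nlrp3, Casp1 and Pycard. They were taken as a fixed list by gene symbol, and all 10 were among the 19537 genes of the count matrices. They were measured in microglia, the resident macrophages of the brain, of mice that lacked PARK7/DJ-1 (KO) and of their wildtype littermates. Mutations of PARK7, which encodes the protein DJ-1, are a cause of inherited Parkinson's disease, and the comparison asks how its loss alters the microglial answer to systemic inflammation. The KO allele was a gene-trap insertion backcrossed to C57BL/6NCrl, so that the loss was not limited to microglia. The mice of both genotypes were 3 to 4 months old and had received 4 µg/g lipopolysaccharide (LPS), a component of the bacterial outer membrane, intraperitoneally 24 h earlier. CD11b+CD45int cells were sorted from the brain and run through Drop-seq, a droplet method that tags every captured transcript with a unique molecular identifier (UMI), so that UMIs count molecules. Each genotype was 1 library, labelled KO LPS and WT LPS in the plots and called KO and wildtype in the text, and each library pooled 2 mice, 1 female and 1 male per the labels. There is no replicate library and no untreated library was analysed, so that genotype and library cannot be told apart, no test between the genotypes could be made, and the 95% intervals below cover counting error only.

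IL-1 alpha and IL-1 beta are cytokines that act through the receptor IL1R1, which needs the accessory protein encoded by Il1rap to signal. The pathway is restrained at the receptor by IL1RN, an antagonist that occupies IL1R1 without activating it, and by IL1R2, a decoy receptor that binds the ligand but cannot signal. IL-1 beta and IL-18 are made as inactive precursors: the sensor NLRP3 assembles with the adaptor ASC, encoded by Pycard, into the inflammasome, which activates caspase-1, and caspase-1 cleaves both precursors. IL-18 is bound and neutralised by the protein encoded by Il18bp. In macrophages and microglia, transcription of Il1b and Nlrp3 is a textbook response to LPS, whereas Pycard and Casp1 are made in resting cells.

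Cells were the barcodes with at least 500 UMIs and at least 100 genes. This gave 320 cells of KO with 381305 UMIs (median 963.5 per cell) and 1427 cells of wildtype with 1989011 UMIs (median 1065 per cell). No cell barcode was shared between the libraries. All 14 genes of a microglial marker list were detected in both libraries. Park7 itself had 1 UMI in KO and 323 in wildtype, a ratio of 0.0161 (interval 0.000408 to 0.0906). The libraries also differed in other ways: choroid plexus transcripts summed to 2119 UMIs per 1000000 UMIs of the library (CPM) in KO and 14.6 CPM in wildtype, P2ry12 was 9.46-fold higher in KO, and the LPS-induced acute-phase gene Saa3 had 0 UMIs in KO and 8367 in wildtype. Of 11 neutrophil markers, 1 (Csf3r) was detected in KO and 6 in wildtype, summing to 430.1 and 264 CPM, and S100a8 and S100a9, which neutrophils and monocytes make, were at 0 in KO and had 81 and 45 UMIs in wildtype, while the granule genes Camp, Ngp and Ltf were at 0 in both. Cells that carried a Y-linked and no Xist UMI, as from the male mouse, numbered 12 in KO and 195 in wildtype, against 200 and 565 with Xist alone. The part of these differences in the results below was not tested, apart from the repeats without marked cells and within the Xist cells.

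The sequences before the start sites of 4 of the genes are shown first, because Il1b and Il1r2 were the 2 members with the lowest log2 ratios, Il1a is the neighbour of Il1b on chromosome 2, and Nlrp3 carries a motif of the transcription factor NF-kB. They are the 250 bases before an annotated start in RefSeq (GRCm38.p6, 5′ to 3′ on the gene's strand), and capitals mark a match to any of 4 motifs on either strand: the NF-kB consensus, an interferon-stimulated response element core (TTTCNNTTTC), an AP-1 core (TGANTCA) and a C/EBP core (TTGCNNAA). The Il1b window is chr2:129371140-129371389, minus strand, that of Il1a chr2:129309973-129310222, minus strand, that of Il1r2 chr1:40085843-40086092, plus strand, and that of Nlrp3, at the first of its 2 starts, chr11:59541319-59541568, plus strand.
Il1b: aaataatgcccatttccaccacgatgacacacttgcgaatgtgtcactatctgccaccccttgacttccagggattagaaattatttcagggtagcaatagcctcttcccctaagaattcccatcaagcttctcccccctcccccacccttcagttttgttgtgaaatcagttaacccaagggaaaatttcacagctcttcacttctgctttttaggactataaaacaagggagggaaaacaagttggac
Il1a: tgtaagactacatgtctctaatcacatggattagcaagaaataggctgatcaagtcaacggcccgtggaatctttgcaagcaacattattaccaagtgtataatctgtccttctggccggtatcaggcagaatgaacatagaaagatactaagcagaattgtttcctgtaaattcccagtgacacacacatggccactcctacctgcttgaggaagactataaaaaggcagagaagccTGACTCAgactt
Il1r2: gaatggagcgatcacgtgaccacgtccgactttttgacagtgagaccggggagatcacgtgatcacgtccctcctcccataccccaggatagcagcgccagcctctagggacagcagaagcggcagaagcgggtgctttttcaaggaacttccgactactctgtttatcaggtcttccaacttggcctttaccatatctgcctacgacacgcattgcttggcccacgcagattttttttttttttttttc
Nlrp3: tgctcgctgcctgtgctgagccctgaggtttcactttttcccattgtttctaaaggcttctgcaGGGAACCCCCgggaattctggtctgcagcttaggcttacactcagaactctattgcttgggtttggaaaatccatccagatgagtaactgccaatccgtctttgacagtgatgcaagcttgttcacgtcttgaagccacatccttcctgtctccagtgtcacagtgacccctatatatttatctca
The Il1b and Il1r2 windows held no capitals, that is, none of the 4 patterns was in these letters. Il1a had the AP-1 core at position 239 of the window, as did the first of 3 starts of Il1rn at position 110. Nlrp3 had the NF-kB consensus at position 65. The C/EBP core was found before Pycard at position 109 and before Il18bp at position 202. Of the 13 windows of the 10 genes, 5 held any motif. Among all 32851 windows of this length, 3.90% held the NF-kB consensus, 2.98% the interferon element, 6.75% the AP-1 core and 9.56% the C/EBP core. A match is a description of the letters and says nothing about binding.

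The IL-1 ligand Il1b and the decoy receptor Il1r2 were abundant in wildtype and had 1 and 0 UMIs in KO, the inflammasome genes Nlrp3, Casp1 and Pycard were each lower in KO by a similar ratio, and Il18 and Il1rap were not lower. The 10 genes summed to 692.4 CPM in KO and 1483.7 CPM in wildtype, a ratio of 0.467 (0.410 to 0.529). Of the 9 genes that reached 20 UMIs in the 2 libraries together, 3 were at least 2-fold lower in KO (Il1b, Il1r2 and Il18bp), 1 was at least 2-fold higher (Il1rap) and 5 lay between, on a log2 scale with a prior count of 0.5. The background was large: of all 9085 genes with that many UMIs, 15.3% were at least 2-fold lower and 13.5% at least 2-fold higher. Of these genes, 21.0%, 22.4% and 23.0% had lower log2 ratios than Pycard, Nlrp3 and Casp1. The median log2 ratio of the 9 genes was -0.70, and that of all genes was 0.03. Scaling by the median ratio of 623 well-measured genes moved every log2 ratio by -0.43 and raised the count of lower genes from 3 to 7, since Il1a, Nlrp3, Casp1 and Pycard then passed the 2-fold line, while the count of higher genes fell from 1 to 0, with Il1rap at 0.62. Under that scaling 26.3% of all 9085 genes were at least 2-fold lower and 6.34% at least 2-fold higher, so that for these 5 genes the position against that line depends on the scaling.

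**Figure D1:**
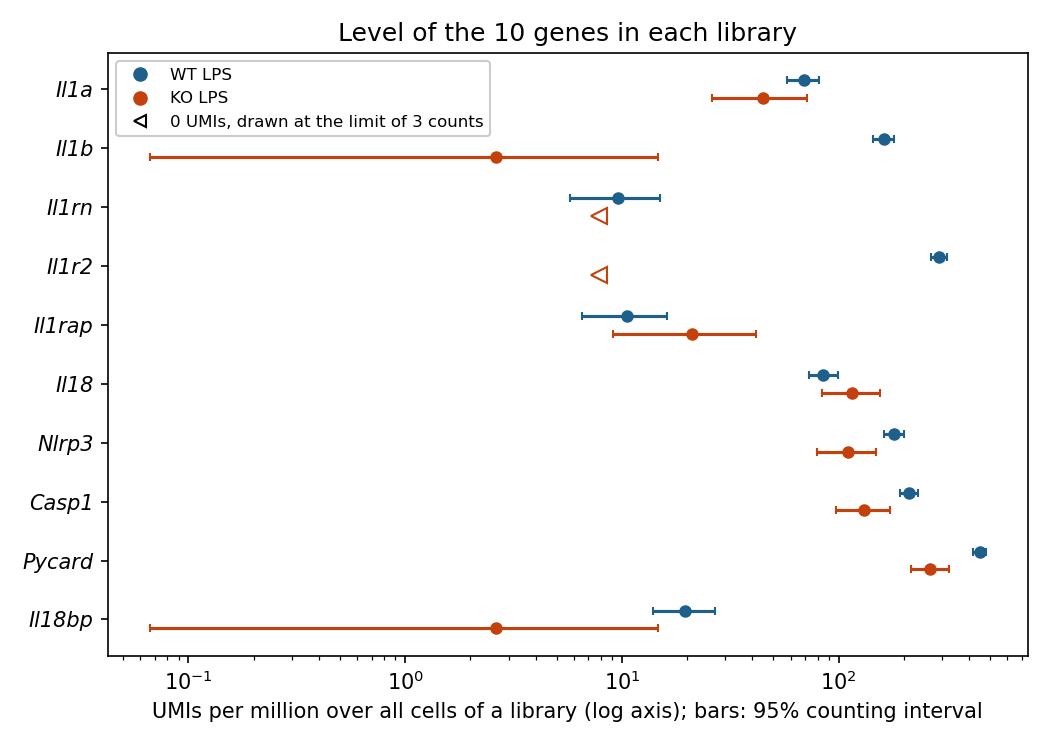
Level of each of the 10 genes in KO LPS (orange) and WT LPS (blue), as CPM summed over the cells of a library on a log axis, with 95% Poisson intervals. Open triangles stand for 0 UMIs and are drawn at the limit that a count of 0 allows. The intervals of Il1b, Il1r2, Nlrp3, Casp1 and Pycard do not overlap between the libraries, and those of Il18bp, with 1 UMI in KO LPS, overlap at their edges.

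Among the ligands, Il1b had 1 UMI in KO and 322 in wildtype, or 2.62 CPM (0.0664 to 14.6) against 161.9 CPM (144.7 to 180.6). At the wildtype level, 61.7 UMIs would have fallen into the KO cells. The ratio of KO over wildtype was 0.0162 (0.000409 to 0.0909). Il1a encodes the other IL-1 agonist, which is active without cleavage, and it had 17 UMIs in KO and 137 in wildtype. Its levels, 44.6 and 68.9 CPM, gave a ratio of 0.647 with an interval (0.366 to 1.08) that includes equality. Il18 was the ligand with the higher level in KO, with 44 UMIs against 169, or 115.4 against 84.97 CPM, and its ratio of 1.36 (0.952 to 1.90) also includes equality. Under median-ratio scaling its log2 ratio was 0.03. In wildtype the order of the ligands was Il1b, Il18 and Il1a, where the intervals of Il18 and Il1a overlap, and in KO it was Il18, Il1a and Il1b, where none overlap. Il18 UMIs per UMI of Il1a and Il1b together were 2.44 in KO (1.38 to 4.50) and 0.368 in wildtype (0.307 to 0.440), intervals that do not overlap. These levels count transcript molecules by a tag at the 3′ end and are not scaled by gene length.

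The decoy receptor was not detected in KO cells. Il1r2 had 577 UMIs in wildtype, or 290.1 CPM (266.9 to 314.8), and 0 in the cells of KO, where 110.6 would be found at the wildtype level. With the floor of 3 counts in place of 0 it was 36.9-fold lower in KO, while the interval of its ratio reached up to 0.0335. Among all barcodes of that library, those below the cell limit included, 1 Il1r2 UMI was found. Il1rn, the receptor antagonist, was rare even in wildtype, with 19 UMIs or 9.55 CPM (5.75 to 14.9), and was not listed in the KO matrix, whose listed genes all had a UMI. At the wildtype level 3.64 UMIs would be found in KO, and the interval of its ratio, 0 to 1.12, includes equality. Il18bp had 1 UMI in KO and 39 in wildtype, or 2.62 against 19.6 CPM, a ratio of 0.134 (0.00330 to 0.790). Il18bp UMIs per Il18 UMI were 0.0227 (0.000563 to 0.133) in KO and 0.231 (0.159 to 0.328) in wildtype.

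Over all wildtype cells the decoy outnumbered the agonist ligands and the antagonist did not. There were 1.26 Il1r2 UMIs (1.11 to 1.42) for each UMI of Il1a and Il1b together, but 0.0590 Il1rn UMIs (0.0351 to 0.0937) for each Il1b UMI. Cells with Xist and no Y-linked UMI held 269 Il1r2 UMIs against 69 of Il1a and 106 of Il1b. Cells with both kinds held 61 against 11 and 36. The counts were close in cells with Y-linked UMIs alone (71 against 20 and 45) and with neither kind (176 against 37 and 135). The parts of the signalling receptor were near the detection limit in both libraries. Il1rap had 8 UMIs in KO and 21 in wildtype, or 21.0 and 10.6 CPM. Its ratio was 1.99 (0.761 to 4.67) and it stood past 2-fold on the log2 scale only through the prior count, and 1 KO cell held 3 of the 8 UMIs. Il1r1, the receptor that signals, had 3 UMIs in each library. For each Il1rap UMI in wildtype there were 27.5 Il1r2 UMIs (17.8 to 44.7), and for each Il1r1 UMI 192.3 (65.5 to 935.4). In KO Il1r2 was at 0 and Il1rap was not.

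The 3 inflammasome genes differed between the libraries by nearly the same ratio. Pycard, the adaptor, had 101 UMIs in KO and 888 in wildtype, or 264.9 CPM (215.7 to 321.9) against 446.5 (417.6 to 476.8), a ratio of 0.593 (0.478 to 0.730). Casp1, the protease, had 50 and 420 UMIs, or 131.1 and 211.2 CPM, a ratio of 0.621 (0.454 to 0.834). Nlrp3, the sensor, had 42 and 359 UMIs, or 110.1 and 180.5 CPM, a ratio of 0.610 (0.432 to 0.842). Each of these intervals lies below 1. The proportions of the 3 genes within a library restate their ratios between the libraries: there were 0.416 Nlrp3 UMIs per Pycard UMI in KO and 0.404 in wildtype, and 0.495 and 0.473 Casp1 UMIs per Pycard UMI. Pycard was the most abundant of the 3 in both libraries, and the intervals of Nlrp3 and Casp1 overlapped in KO and did so in wildtype too, at 162.3 to 200.2 and 191.4 to 232.4 CPM.

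Other genes of both pathways, from lists that hold none of the 10, did not share one direction. Of the IL-1 signalling list, 20 of 24 genes were in the matrices and 15 had at least 20 UMIs, of which 3 were at least 2-fold lower in KO and 4 at least 2-fold higher, with a median log2 ratio of 0.58. Under median-ratio scaling 4 were lower (Peli1 being added) and 3 higher, with a median of 0.16, beside the 26.3% and 6.34% of all genes given above and the 15.3% and 13.5% without that scaling. The lowest were Irak3, a kinase-like inhibitor of the pathway, with 0 UMIs in KO and 133 in wildtype, Il18rap, a chain of the IL-18 receptor, with 3 and 57 UMIs, and Myd88, the adaptor of IL-1 and Toll-like receptors, with 12 and 155 UMIs and a ratio of 0.404 (0.204 to 0.726). The highest were Tollip at 3.18-fold (1.51 to 6.44), Peli2 at 3.0-fold (1.71 to 5.13) and Il1rl1 at 2.61-fold (0.966 to 6.46), the last on 8 and 16 UMIs. Of the inflammasome list, all 22 genes were in the matrices and 17 had at least 20 UMIs. Of these 0 were at least 2-fold lower and 3 at least 2-fold higher, with a median of 0.25. Under median-ratio scaling 2 were lower (Naip2 and Naip6) and 3 higher, and the median was -0.17, so that its sign depends on the scaling. The highest were Txnip, a binding partner of thioredoxin and NLRP3, at 3.02-fold (2.47 to 3.69), Gsdme at 2.93-fold and Nlrp1a at 2.71-fold. The lowest were Naip2 at 0.565 (0.411 to 0.762), Naip6 at 0.571 (0.303 to 0.993) and Gsdmd, the pore-forming target of caspase-1, at 0.668 (0.447 to 0.967). The Naip genes are close copies of one another, so that reads may be split between them.

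**Figure D2:**
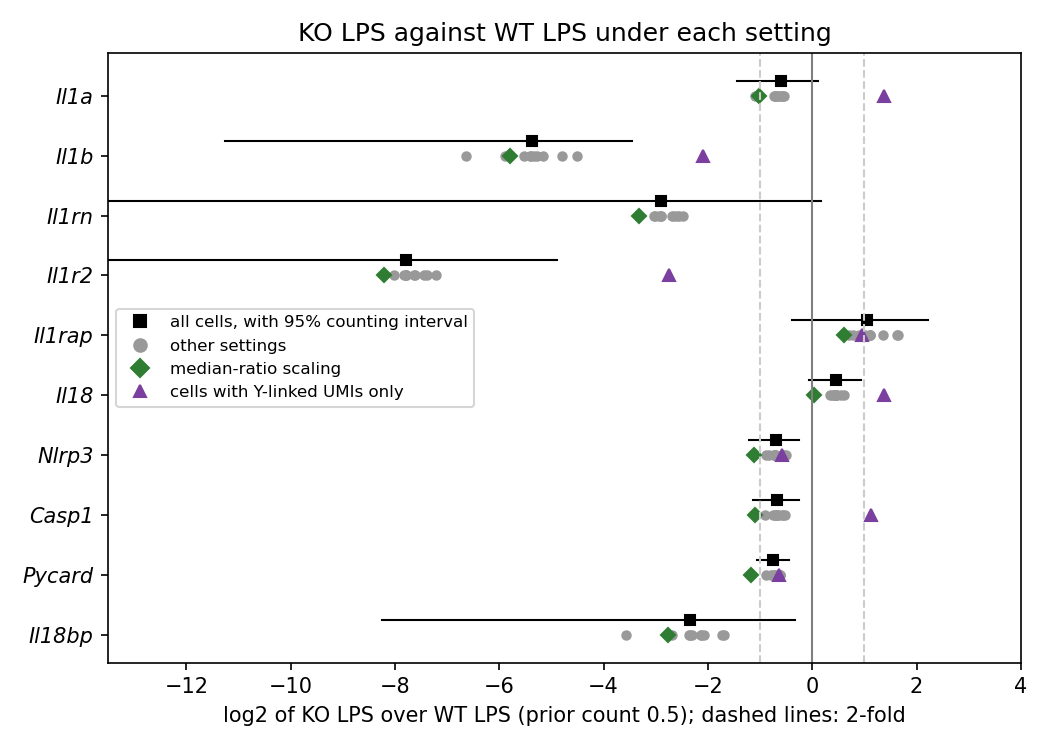
Log2 of the KO LPS level over the WT LPS level for each gene with all cells (black squares, with 95% counting intervals, cut at the axis edge where the lower limit is 0), and under the other settings, among them median-ratio scaling (green diamonds) and the cells with Y-linked and no Xist UMIs (purple triangles, 12 KO LPS cells). Il1b and Il1r2 lie left of the 2-fold line in each setting drawn. In the Y-linked cells they had 0 KO LPS UMIs, so that the prior count places them there, and a KO interval reaching up to 255.4 CPM includes the WT LPS level. Nlrp3 and Pycard lie near the 2-fold line, as do Il1a and Casp1 except in the Y-linked cells, where they are above 0. The Il1rap value of these cells (0 KO LPS and 5 WT LPS UMIs) is above 0 through the prior count. No Il1rn or Il18bp value is drawn for the Y-linked cells, which held fewer than 5 of their UMIs.

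The difference in Il1b and Il1r2 was also present between cells of the same sex. Among cells with Xist and no Y-linked UMI, as from the female mouse, Il1b was at 3.84 CPM in KO (1 UMI, 200 cells) and 130.9 CPM in wildtype (106 UMIs, 565 cells), and Il1r2 at 0 and 332.2 CPM. Nlrp3 was at 119 and 197.6 CPM, Casp1 at 107.4 and 205 CPM, Pycard at 264.8 and 437.2 CPM and Il18 at 130.5 and 86.5 CPM in the same cells. The 12 KO cells with Y-linked and no Xist UMIs held 14445 UMIs, too few for a comparison, although the labels give a male mouse in the pool. Another 99 KO cells carried neither kind of UMI and 9 carried both, so that their mouse is not known. Within wildtype, Xist cells and Y-linked cells had Il1b at 130.9 and 146.4 CPM, with overlapping intervals, and Il1r2 at 332.2 (293.7 to 374.4) and 230.9 (180.4 to 291.3) CPM, where they do not overlap. Cells with S100a8 or S100a9 UMIs, 59 in wildtype and 0 in KO, held 32 of the 577 Il1r2 UMIs and 8 of the 322 Il1b UMIs. The median log2 ratios of the members without these cells, and without 44 KO and 167 wildtype cells that carried at least 2 UMIs of other blood or border cell markers (Csf3r among them), were -0.71 and -0.73. The 167 wildtype cells held 140 of the Il1r2 UMIs and 60 of the Il1b UMIs.

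Within wildtype, Il1b came from few cells. Its 322 UMIs were in 116 cells, where 271.6 cells would carry at least 1 if every cell held the gene in proportion to its depth. The 19 richest cells held 50% of them, the 5 richest held 22.0%, and the richest cell had 26 Il1b UMIs among 3107 in all. The 33 cells with at least 3 Il1b UMIs, a limit chosen after the values were seen, were 2.31% of the cells and held 66.8% of the Il1b UMIs. The decoy receptor was spread more widely, with 577 UMIs in 313 cells against 436.2 if even, and 74 cells held 50%. Nlrp3 was in 269 cells against 297.8 if even, Casp1 in 293 against 339.1 and Pycard in 536 against 596.6. Il18 was in 151 cells against 153.6 and Il1a in 112 against 126.6. In KO, Nlrp3 was in 32 cells against 38.6, Casp1 in 35 against 45.2, Pycard in 74 against 83.1 and Il18 in 38 against 40.3.

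**Figure D3:**
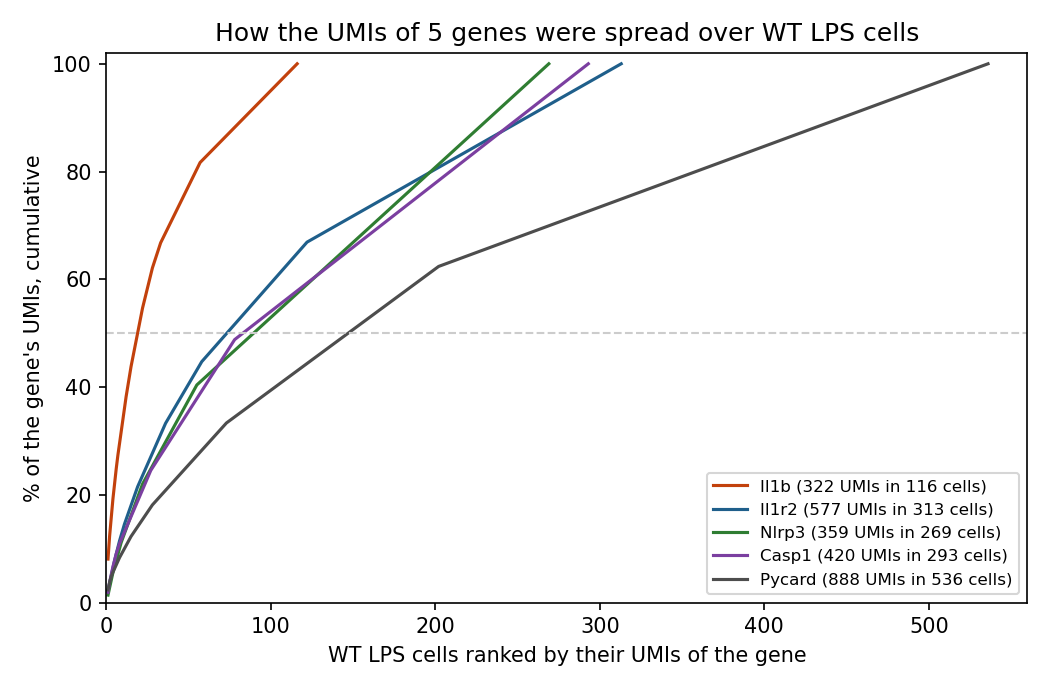
Cumulative percentage of the UMIs of 5 genes over the WT LPS cells, ranked from the cell with most UMIs of the gene. The Il1b curve rises fastest, reaching 50% (dashed line) at 19 cells, while Il1r2, Casp1, Nlrp3 and Pycard need 74, 83, 90 and 147 cells.

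For the share of cells with a UMI, each cell was thinned to 500 UMIs. At least 1 of the 10 genes was then found in 26.6% of KO cells (21.8 to 31.8) and 48.2% of wildtype cells (45.6 to 50.8), and in 46.6% and 70.6% without thinning. Free RNA can give such UMIs too, so each share was set beside the one that droplets of 500 UMIs would have if drawn from the barcodes with at most 100 UMIs, which came to 25.9% in KO and 33.8% in wildtype. These low-count barcodes were rich in microglial transcripts themselves: the marker list summed to 36603.7 CPM there and 40211.9 CPM in the cells of KO, and to 16829.9 and 27267.8 CPM in wildtype.

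In wildtype 3 genes exceeded this background in both of 2 random draws of the thinning, with intervals that did not overlap: Il1r2 with 11.0% of cells (9.42 to 12.7) against 6.29% (4.55 to 8.43), Pycard with 17.5% (15.6 to 19.6) against 8.63% (6.61 to 11.0), and Il18 with 4.27% (3.29 to 5.46) against 1.42% (0.650 to 2.67). Nlrp3 did so in the first draw, with 9.25% (7.80 to 10.9) against 5.24% (3.66 to 7.25), but not in the second, with 8.06% (6.70 to 9.59). Casp1 with 9.67% against 8.34% and Il1a with 3.50% against 3.42% did not stand apart from it. Il1b, with 4.27% of cells (3.29 to 5.46), was not above its background of 4.94% by this measure. Counted by cells with at least 3 Il1b UMIs out of 500, however, there were 10, where the low-count barcodes alone would give 0.0296. The same count was 9 cells for Il1r2 (0.0616 from background), 5 for Nlrp3 (0.0355), 4 for Casp1 (0.146), 3 for Pycard (0.163) and 0 for the other 5 genes. In the second draw it was 11 for Il1b, 9 for Il1r2, 3 for Nlrp3, 4 for Casp1 and 5 for Pycard. In KO no share of cells with at least 1 UMI had an interval above that of its background: Pycard was in 11.9% of cells (8.54 to 15.9) against 9.57%, Casp1 in 5% against 7.74%, Nlrp3 in 4.38% against 4.43% and Il18 in 4.06% against 4.43%. At least 3 UMIs of a member were in 1 KO cell for Pycard and in 0 for each of the other 9 genes, in both draws. At least 2 Pycard UMIs were in 9 KO cells in the first draw and 6 in the second, where the low-count barcodes would give 1.51 cells, at least 2 Casp1 UMIs in 0 and 4 (0.981 from background), Nlrp3 UMIs in 2 and 0 (0.318) and Il18 UMIs in 1 and 1 (0.318). UMIs of Il1b, Il1rn, Il1r2 and Il18bp were in 0 of 320 cells (Il18bp in 1 in the second draw), and by 3 counts this allows up to 0.938% of cells with a UMI at this depth (1.15% by Clopper-Pearson), which is no limit on cells that express the gene.

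**Figure D4:**
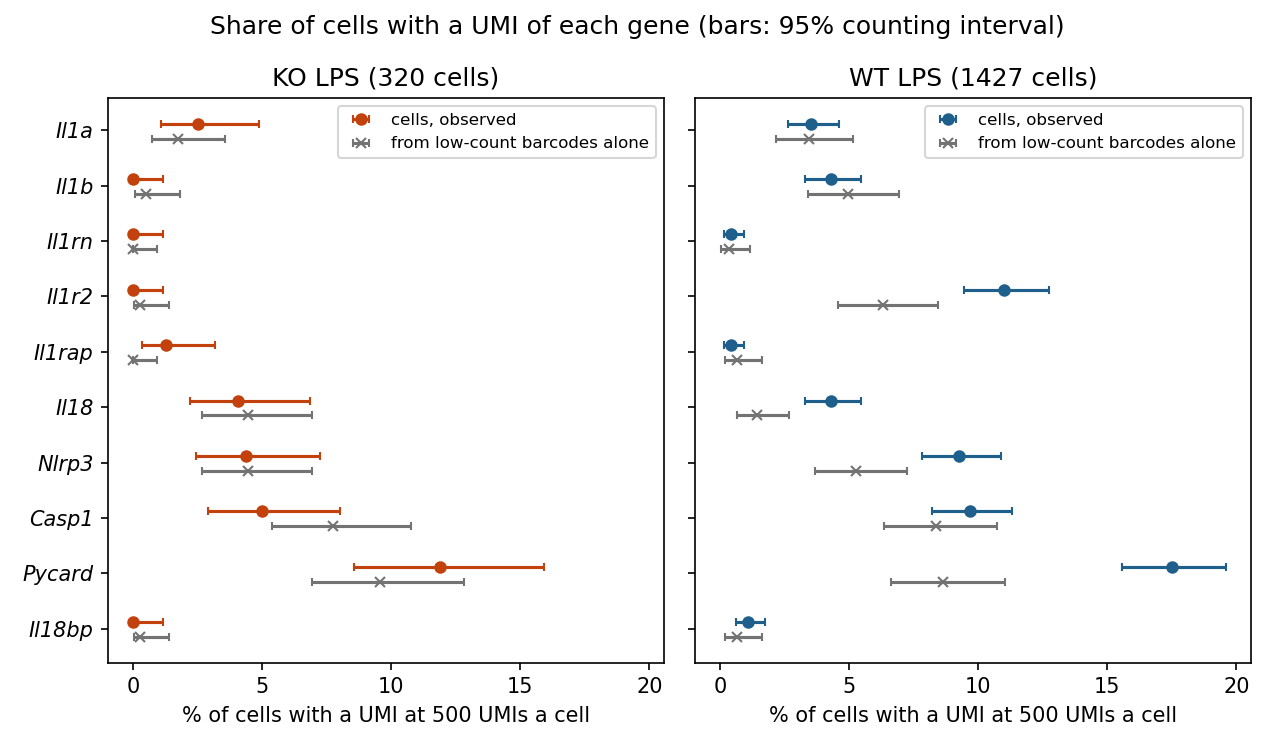
Percentage of cells with at least 1 UMI of each gene after thinning to 500 UMIs a cell (circles) and the percentage that the low-count barcodes alone would give (grey crosses), for KO LPS at left and WT LPS at right, with 95% counting intervals. Il1r2, Il18, Nlrp3 and Pycard stand clear of the crosses in WT LPS in the draw plotted, Nlrp3 not in a second draw, and in KO LPS the intervals of circle and cross overlap for each gene.

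Co-detection was counted in the thinned cells of wildtype, since KO kept no cell with Il1b. Of the 61 cells with an Il1b UMI, 13 also had an Nlrp3 UMI, or 21.3% (11.9 to 33.7), against 8.71% (7.27 to 10.3) of the 1366 cells without Il1b. Il1a was in 7 of the 61, or 11.5% (4.74 to 22.2), against 3.15% (2.29 to 4.22). Both separations depended on the draw: in the second, with 69 Il1b cells, Nlrp3 was in 8 of them, or 11.6% (5.14 to 21.6), against 7.88% (6.50 to 9.44), and Il1a in 5, or 7.25% (2.40 to 16.1), against 3.09% (2.24 to 4.16), intervals that overlap. For Il1a and Nlrp3 the intervals overlapped in both draws. Nlrp3 was in 10 of 50 Il1a cells, or 20% (10.03 to 33.7), against 8.86% (7.41 to 10.5) of the rest. In the second draw it was in 7 of 47, or 14.9% (6.20 to 28.3), against 7.83% (6.46 to 9.37). The other genes did not stand apart at this depth in either draw. The decoy Il1r2 was in 8.20% of Il1b cells (2.72 to 18.1) and 11.1% of the rest, Casp1 in 8.20% and 9.74%, and Pycard in 18.0% and 17.5%. Il18 was in 0 of the 61 Il1b cells (interval up to 5.87%) and 4.47% of the rest (3.43 to 5.70), and the antagonist Il1rn was in 1 of 61, or 1.64% (0.0415 to 8.80). Among the inflammasome genes, Casp1 was in 9.85% of Nlrp3 cells and 9.65% of the others, and Pycard in 16.7% of both Nlrp3 and Casp1 cells and 17.6% of the others. These shares moved in the second draw, with intervals that still overlapped. Casp1 was then in 5.22% of Nlrp3 cells against 9.60%. Pycard was in 23.5% of Nlrp3 cells against 16.7%, and in 15.9% of Casp1 cells against 17.4%. All 3 were found together in 4 of 1427 cells at 500 UMIs, or 0.280% (0.0764 to 0.716). In KO it was 0 of 320, with an interval up to 1.15% that covers the wildtype one.

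**Figure D5:**
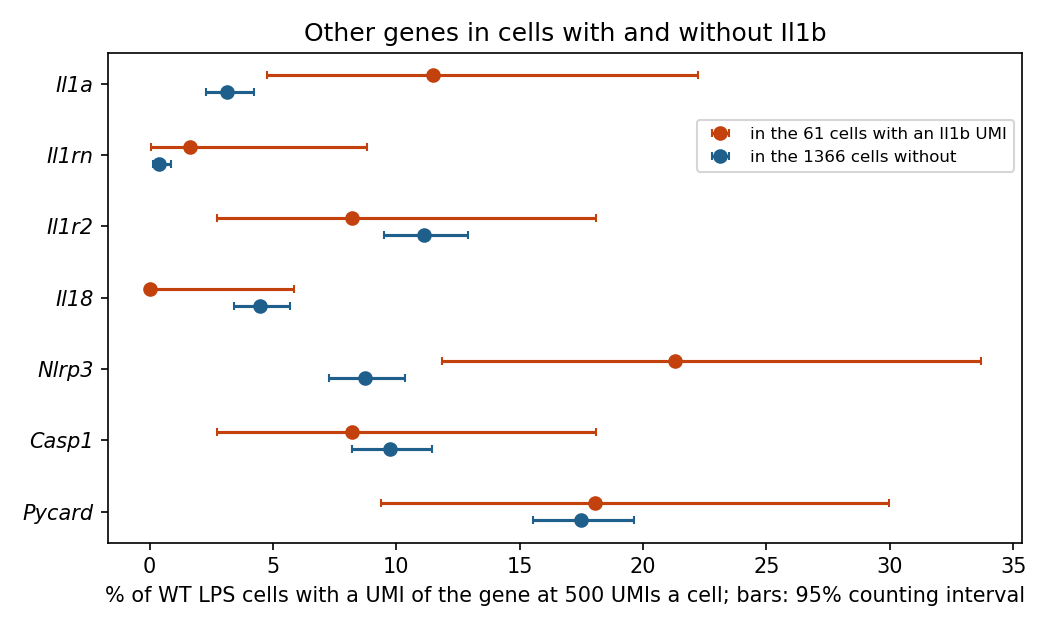
Percentage of WT LPS cells with a UMI of each of 7 genes among cells with (orange) and without (blue) an Il1b UMI, after thinning to 500 UMIs a cell, with 95% Clopper-Pearson intervals. In the draw plotted the intervals are apart for Il1a and Nlrp3, which they were not in a second draw, and overlap for the other 5 genes.

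The genes whose thinned counts were most like those of Il1b over the 1427 wildtype cells were the chemokines Ccl4 (Pearson r = 0.24), Ccl3 (r = 0.15) and Ccl12 (r = 0.15), with Hexim1 (r = 0.16) and Tnfaip2 (r = 0.14), among 2941 genes with at least 50 thinned UMIs. For Nlrp3 they were Il1b (r = 0.13), Tnfaip2 (r = 0.13), Aamp, Sec24a and Immt, the last 3 between r = 0.10 and r = 0.11. Such weak values in sparse counts are a description and not a finding, and the cells share one library. For Il1rn they were Il1a (r = 0.16), Slc31a1 (r = 0.15), Tnfaip2 (r = 0.15), Ccl4 (r = 0.14) and Rars (r = 0.12), which rest on the 6 cells with an Il1rn UMI.

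In RefSeq's gene table of the same assembly, whose gene extents can reach beyond the starts used for the windows, Il1a (129299609 to 129310186), Il1b (129364569 to 129371164) and Il1rn (24336860 to 24351491) lie on chromosome 2. Il1r2 is on chromosome 1, Pycard and Il18bp on 7, Il18 and Casp1 on 9, Nlrp3 on 11 and Il1rap on 16. In GENCODE vM39, Il1b is overlapped on the other strand by Il1bos and Gm14023, Il1a by Gm14023, Il1r2 by Gm16894, Il1rap by Gm20319, Il18 by Bco2 and Tex12, Casp1 by Gm67740, Pycard by Gm45205 and Il18bp by Numa1. On the same strand, Il1r2 is overlapped by Gm37347 and Il1rap by Gm60483, which counting by strand would not separate. Whether counting used the strand was not given in the sources used here, so reads of the partners on the other strand cannot be told apart either. Nlrp3 and Il1rn had no overlapping gene there.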

How the data were processed

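The authors deposited 1 matrix of raw counts per library, the UMIs per gene and barcode, with no normalization. The submitters' processing notes name bcl2fastq 2.0, STAR and the builds mm9 and mm10 without their roles. The counting program and annotation are not given in the sources used here. In the text, KO and wildtype stand for these libraries. The study's methods remove cells with under 100 genes. Both matrices hold 9999 barcodes and are not filtered to cells. Missing values, 5616 genes in KO LPS and 3036 in WT LPS, were read as 0.

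Cells were barcodes with at least 500 UMIs and 100 genes. They held 55.7% of the UMIs of KO LPS (684738) and 64.9% of those of WT LPS (3063795). Doublets were left in. UMIs were summed over the cells of a library and given per 1000000 UMIs (CPM). Intervals (95%) were exact Poisson for levels, exact conditional binomial for ratios and Clopper-Pearson for shares. They cover counting error only, and there were no replicates for a test. Log2 ratios used a prior count of 0.5, and a count of 0 a floor of 3 counts per library (7.87 CPM in KO LPS, 1.51 in WT LPS). For shares, cells were thinned without replacement to 500 UMIs; no cell was left out. Genes that reached 20 UMIs in both libraries together could be called past 2-fold.

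The members and gene lists were chosen with earlier results of these data known. Named were the 10 members, Park7, Il1r1, the 3 highest and 3 lowest ratios of each pathway list, and the 5 genes most like Il1b, Il1rn and Nlrp3 over cells. Others named (P2ry12, Saa3, single markers and genes of the closing section) were chosen after their values were seen. Marker lists covered microglia, neutrophils, monocytes, border macrophages, lymphocytes, astrocytes, endothelial cells, choroid plexus and immediate early genes. In KO LPS and WT LPS, monocyte markers summed to 31.5 and 106.6 CPM, border macrophage markers to 62.9 and 46.2, lymphocyte markers to 0 and 1.01, astrocyte markers to 369.8 and 173, endothelial markers to 89.2 and 37.7 and immediate early genes to 1492.2 and 1731.5. Calculations used Python 3.11.15, numpy 2.4.6, scipy 1.17.1 and pandas 2.3.3, and were tested on simulated data.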

Additional observations from a re-analysis of the deposited data

Results flagged for a closer look

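Il18 stood out in the barcodes below the cell limit. Some of these were used elsewhere: those with at most 100 UMIs gave the background of the shares, and those with at least 100 genes entered an alternative setting. Below the cell limit Il18 was at 112.1 CPM in KO (34 UMIs) and 66.06 CPM in wildtype (71 UMIs), a ratio of 1.70 with a counting interval of 1.09 to 2.59. Median-ratio scaling, which took the log2 ratio of Il18 in the cells to 0.03, was not applied to this ratio. These barcodes also differed in depth: 9236 of 9679 in KO and 4270 of 8572 in wildtype had at most 100 UMIs. Of the other 9 genes, none had an interval above 1 outside the cells. The inflammasome genes, lower in KO cells, had intervals there that include 1: Pycard at 1.16 (0.863 to 1.53), Nlrp3 at 0.937 (0.614 to 1.39) and Casp1 at 0.779 (0.544 to 1.09). The origin of these UMIs was not tested.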

How the results depend on the processing

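The median log2 ratio of the members stayed below 0 in all 13 alternatives, between -1.12 and -0.57. The log2 ratio of Il18 was above 0 in each of its 12 alternatives, in the Y-linked cells on 2 UMIs in KO. Il1b and Il1r2 were lower in KO in each of theirs but the Y-linked cells, which held 0 of their UMIs in KO: the log2 ratios of -2.10 and -2.75 there came from the prior count, and the interval of a KO count of 0 (up to 255.4 CPM) includes the wildtype level. Il1rap was higher in all but the Y-linked cells, where it had 0 UMIs in KO and 5 in wildtype and its log2 ratio of 0.95 came from the prior count. The count of members at least 2-fold lower was 7 under median-ratio scaling, where 26.3% of all genes were that much lower (15.3% without it), and 2 to 4 otherwise. In Y-linked cells, with 12 cells of KO, Il1a, Il18 and Casp1 had log2 ratios of 1.38, 1.38 and 1.12, and Il1rn and Il18bp gave no value because fewer than 5 UMIs were left. The share of cells with any member followed depth: it was 52.0% in KO and 71.4% in wildtype when thinned to 1000 UMIs, and 46.6% and 70.6% without thinning. A second random draw of the thinning, in the report beside the first, ended the separation of Nlrp3 from its background and those of Il1a and Nlrp3 between cells with and without Il1b. The share of Il1b cells with Il1rn was 0 when thinned to 1000 UMIs. The ratio of Il1rn to Il1b between the libraries could not be given, since both genes were at or under the floor in KO. Removing cells with an N in the barcode, cells with S100a8 or S100a9 UMIs, or the deepest cell of each library was chosen after seeing the data and gave medians of -0.65, -0.71 and -0.69. The second draw for co-detection and counts of cells with several UMIs, and the pathway lists under median-ratio scaling, were also added then. No paired analysis was possible because each genotype had 1 library. The depth of KO limits what can be said of Il1rn, Il18bp and Il1rap.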

Other observations

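Other genes differed between the 33 wildtype cells with at least 3 Il1b UMIs and the other 1394 cells, a split chosen after the values were seen and given without a test. Il1a was at 218.5 CPM in these cells and 61.7 CPM in the rest, and the chemokine Ccl4 at 458.8 and 102.2 CPM. Cxcl2 was at 185.7 and 22.7 CPM, but its 17 UMIs came from 3 cells. Tnf was at 163.9 and 88.5 CPM. Saa3 was lower in these cells, at 1496.7 CPM against 4337.3. The microglial gene P2ry12 was at 382.4 and 406.9 CPM, and S100a8 and S100a9 were at 0 in the 33 cells. Immediate early genes summed to 2217.8 and 1708.1 CPM. The Il1b cells were also deeper, with a median of 1669 UMIs against 1057.5.

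The 157 wildtype cells with an Il1r2 UMI at equal depth had Saa3 at 1817.5 CPM against 4492.2 in the other 1270. S100a8 was at 136.5 and 29.3 CPM and S100a9 at 117.7 and 11.3 CPM, on 29 UMIs in 5 cells and 25 UMIs in 3 cells. Il1b was at 131.8 and 165.5 CPM.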
